A study of Mus musculus with 8 samples.

Results

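The neuregulin and ErbB receptor genes are described here in the mouse dorsal root ganglion (DRG) before and after an inflammatory injection into the hind paw. The 9 members are the rows of the deposited count table, out of 24421 genes, that carry the symbols of 4 receptors (Egfr, Erbb2, Erbb3, Erbb4), 3 neuregulins (Nrg1, Nrg2, Nrg3) and 2 ligands of the epidermal growth factor (EGF) type (Hbegf, Btc). Lumbar DRG (L3 to L5) of wild-type C57BL/6J mice were taken from naïve, untreated mice (0d) and at 1 day, 3 days and 30 days (1d, 3d, 30d) post injection of 20 µL of 1% carrageenan, a seaweed polysaccharide that causes local swelling and pain, into the left hind paw. The series description gives the mice as 8 weeks old, and the methods give males over a range of ages that starts there. Each time point had 2 libraries, each from a pool of 2 to 3 mice, and none of the 8 libraries came from sham-injected mice, so injection, inflammation and time cannot be told apart. The labels call the cells DRG neurons, but whole ganglia were extracted, and they hold glia, vessels and connective tissue beside neurons.

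ErbB receptors are membrane tyrosine kinases that pair when a ligand with an EGF-like domain binds. Erbb2 binds no ligand of its own and serves as the preferred partner. Erbb3 binds neuregulins, has a weak kinase and recruits phosphatidylinositol 3-kinase. In peripheral nerve, Nrg1 type III on the axon acts on the Erbb2 and Erbb3 pair of Schwann cells, the glia that wrap axons, and sets their survival and the thickness of myelin. Egfr, the receptor for Hbegf and Btc among others, is found on many cell types, and Erbb4 binds both neuregulins and some EGF-type ligands.

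For 7 of the members a coding stretch that gives the protein its role is shown, and all of these bases lay inside the counted exons. The stretches are from GENCODE vM21 transcripts on the GRCm38 (mm10) reference, written 5′ to 3′ on the coding strand. The EGF-like domain, the part of each ligand that binds the receptor, is shown for a pair of neuregulins and for betacellulin (Btc), with the 6 cysteine codons that hold its fold in capitals. It lies at chr8:31837698-31849398 for Nrg1, chr14:38668261-39012054 for Nrg3 and chr5:91362421-91366197 for Btc, all on the minus strand, and the exons are joined.
Nrg1: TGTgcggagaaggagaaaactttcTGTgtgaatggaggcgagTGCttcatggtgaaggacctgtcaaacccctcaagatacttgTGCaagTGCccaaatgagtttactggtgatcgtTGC
Nrg3: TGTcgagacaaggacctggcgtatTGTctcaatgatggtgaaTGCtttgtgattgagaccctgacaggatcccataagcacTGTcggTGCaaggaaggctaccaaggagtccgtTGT
Btc: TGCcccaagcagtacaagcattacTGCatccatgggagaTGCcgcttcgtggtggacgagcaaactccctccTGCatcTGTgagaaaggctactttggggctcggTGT

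For the receptors, the stretch of 24 bases that encodes the catalytic loop of the kinase is shown. Pairing switches on this kinase activity, which is weak in Erbb3. The capitals mark the codon of the catalytic aspartate, which the mouse reference encodes in all 4 receptors. The stretches lie at chr11:16904338-16904361 (Egfr, plus strand), chr11:98434247-98434270 (Erbb2, plus strand), chr10:128572533-128572556 (Erbb3, minus strand) and chr1:68080739-68080762 (Erbb4, minus strand).
Egfr: caccgtGACttggcagccaggaat
Erbb2: cacaggGACctagctgcccgaaac
Erbb3: cataggGACcttgcgctccggaat
Erbb4: catcggGATctggcagcccgcaat

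What a count of Nrg1 means depends on which form was counted. The deposited Nrg1 row spans chr8:31818028-31918203 on the minus strand and has 9 exons with 2103 bases, which is 20.3% of the exon bases that GENCODE gives the gene. Its first exon, chr8:31917537-31918203, is the start of the type III form. Of the 12 protein-coding Nrg1 transcripts in GENCODE, 4 have a first exon that overlaps it and 8 start farther upstream, and between 19.4% and 58.8% of the bases of those 8 fell in counted exons. The Nrg1 count therefore covers the type III start, covers the other forms only through the exons they share with it, and cannot separate them. The cysteine-rich stretch that is particular to the type III start, chr8:31917931-31918032, is shown with its 8 cysteine codons in capitals.
Nrg1 type III: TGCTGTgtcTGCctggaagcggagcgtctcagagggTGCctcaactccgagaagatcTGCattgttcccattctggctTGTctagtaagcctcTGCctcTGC

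The other rows were fuller for some members than for others. The counted exons held 95.9% of the GENCODE exon bases of Erbb2 and 90.2% of those of Nrg2, between 49.1% and 66.8% for Egfr, Erbb3, Nrg3, Hbegf and Btc, and 34.5% for Erbb4. Counting ignored the strand and gave a read pair to every gene it overlapped. Of the Nrg3 row, 660 bases (16.4%) overlap LOC432842 on the opposite strand. Reads there were counted for both genes, and which gene they came from cannot be told. The corresponding share was 0.18% for Erbb2 and 0 for the other 7 members. Less than 1% of the 50-base words of each member's longest transcript occurred in a transcript of another gene.

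The libraries held between 44123208 and 73580338 counts. All 9 members passed the filter on low counts that 17328 genes passed. Levels are given as CPM, the count relative to the total of its library, after edgeR's TMM scaling between libraries. The summed level of 10 sensory neuron markers was between 11320 and 12470 CPM and that of 14 Schwann cell markers between 6961 and 12790 CPM, so RNA of both cell types was in every library. None of the markers of the sensory neuron, Schwann cell, satellite glia, fibroblast, endothelium, macrophage, skeletal muscle and red blood cell lists was at 0 throughout. In bulk RNA, fewer cells of a type and less RNA per cell cannot be told apart.

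Per kilobase of counted exon, the members spread over a wide range of levels. Nrg1 was highest, with a mean over the 8 libraries of 35.8 CPM per kb and a range of 34.2 to 37.8. Erbb3 followed at 14.3 (12.4 to 15.1), then Nrg3 at 10.3 (9.73 to 11.03), Nrg2 at 6.63 (6.20 to 7.03), Hbegf at 4.55 (3.70 to 5.42) and Erbb2 at 3.56 (3.21 to 4.49). The 3 members at the foot of the order were Egfr at 1.15 CPM per kb (0.754 to 1.68), Btc at 0.271 (0.169 to 0.325) and Erbb4 at 0.141 (0.0772 to 0.207). The ranges of neighbours did not overlap except for Hbegf and Erbb2, where Hbegf was the higher in 7 of 8 libraries, and for Btc and Erbb4, where Btc was the higher in 8 of 8. The order rests on the counted exon models, which leave out a different share of each gene.

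**Figure D1:**
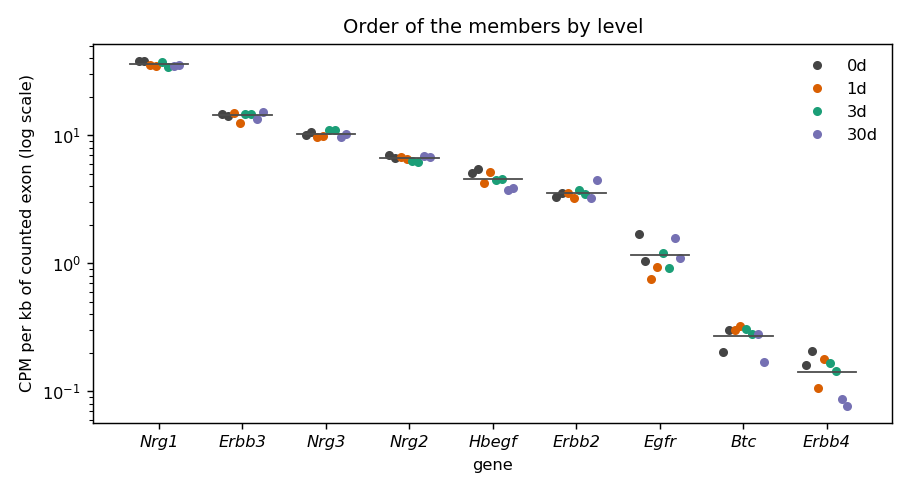
Level of each member in each of the 8 libraries, as CPM per kb of counted exon on a log scale, with 1 point per library coloured by time point and a line at the mean. Nrg1 lies between 34.2 and 37.8 CPM per kb in all libraries and Erbb4 between 0.0772 and 0.207, and the ranges of Hbegf and Erbb2, and of Btc and Erbb4, overlap.

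None of the 9 members passed the threshold, an adjusted p under 0.05 in edgeR's quasi-likelihood test across all 17328 genes, in any comparison with 0d. In the same tests the share of all genes that passed was 0.346% (1d), 0.219% (3d) and 0.0231% (30d). The smallest adjusted p of a member was 0.9999 at 1d, 0.909 at 3d (Hbegf) and 0.172 at 30d (Hbegf). At an unadjusted p under 0.05 stood 1 member at 1d (Egfr), 0 at 3d and 2 at 30d (Hbegf and Erbb4), where 4.47%, 5.94% and 12.3% of all genes stood. The median log2 fold change of the members was -0.08 at 1d, -0.08 at 3d and -0.06 at 30d, beside -0.0032, -0.0021 and -0.0004 over all genes tested. The 3 comparisons share the same 0d libraries, so their values are not independent.

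**Figure D2:**
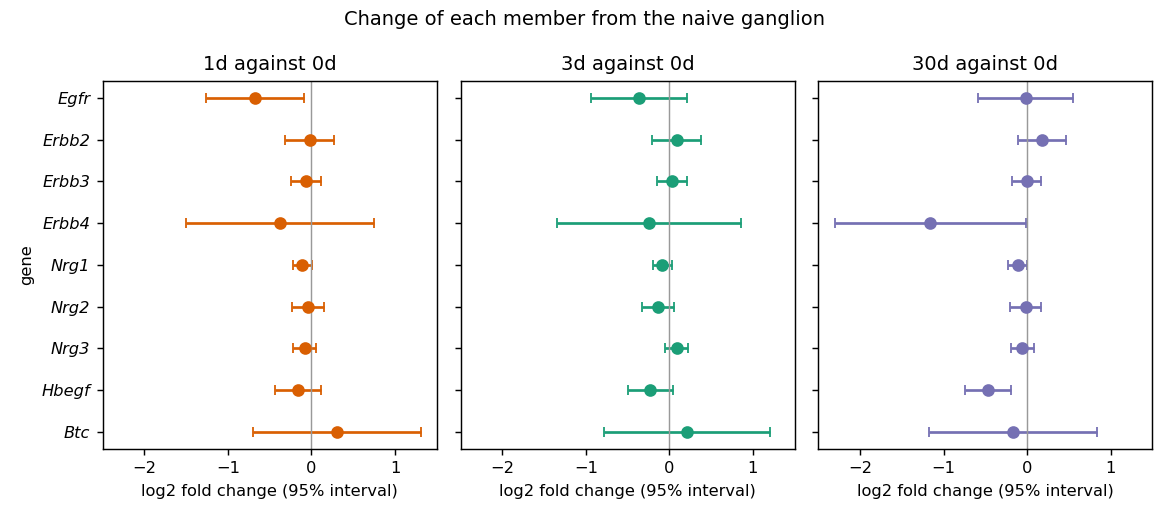
The log2 fold change of each member at 1d, 3d and 30d against 0d, with its 95% interval from the fit over all 8 libraries, as points with bars. The intervals of Egfr at 1d and of Hbegf and Erbb4 at 30d leave out 0 before adjustment for the 17328 genes tested, and no member passed after it.

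Among the receptors, Erbb3 and Erbb2, the pair through which Schwann cells read neuregulin, were measured most precisely. Erbb3 (chr10:128569368-128589501, minus strand) had 58.5 and 57.0 CPM (0d), 60.3 and 49.8 (1d), 58.8 and 59.2 (3d) and 54.0 and 60.8 (30d). The 2 libraries of 1d were the farthest apart, one above and one below both 0d libraries. Against 0d, Erbb3 differed on the log2 scale by -0.07 ± 0.083 (1d, SE), 0.03 ± 0.082 (3d) and -0.0078 ± 0.082 (30d). Its 95% interval at 30d allowed a fold between 0.880 and 1.12.

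Erbb2 (chr11:98412484-98437716, plus strand) had 16.4 and 17.6 CPM (0d), 17.5 and 16.03 (1d), 18.7 and 17.4 (3d) and 16.1 and 22.5 (30d). The library of 30d replicate 2 was the highest of all 8, and 30d replicate 1 the second lowest. Its log2 fold change at 30d was 0.18 ± 0.13 (SE), with an interval from 0.928-fold to 1.38-fold and an adjusted p of 0.613 in edgeR. Without 30d replicate 1 it was 0.40 with an adjusted p of 0.0938, and without 30d replicate 2 it was -0.08.

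Egfr (chr11:16752203-16913907, plus strand), which responds to Hbegf and Btc, had the widest spread among the members with more than 100 counts in every library. It had 10.8 and 6.64 CPM (0d), 4.86 and 6.04 (1d), 7.71 and 5.86 (3d) and 10.1 and 7.10 (30d). Both 1d libraries lay below both 0d libraries, but the 2 libraries of 0d differed from each other by more than the lower of them differed from either 1d library. At 1d Egfr stood at a log2 fold change of -0.68 ± 0.26 (SE), a fold of 0.626 with an interval from 0.415 to 0.943, and the adjusted p was 0.9999. Without 0d replicate 1 the 1d value was -0.28, and without 0d replicate 2 it was -0.99. The 2 libraries with the most Egfr, 0d replicate 1 and 30d replicate 1, also had the highest summed level of 9 skeletal muscle markers, 150.3 and 120.5 CPM, where the other 6 libraries had 23.9 to 78.1 CPM. In 0d replicate 1 the sum of 6 fibroblast markers was 1917 CPM, against 1288 to 1410 CPM elsewhere. The part of these cell types in the Egfr values was not tested.

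Erbb4 (chr1:68039966-69108059, minus strand) was the least abundant member, with 36 and 54 counts (0d), 21 and 33 (1d), 46 and 45 (3d) and 22 and 23 (30d). This came to 0.680 and 0.880 CPM (0d), 0.453 and 0.752 (1d), 0.705 and 0.616 (3d) and 0.371 and 0.329 (30d). The 30d libraries were the lowest of the 8, with exact Poisson intervals, which cover counting error only, of 0.232 to 0.561 and 0.208 to 0.493 CPM. Both overlap the interval of 0d replicate 1 (0.477 to 0.942 CPM), and neither overlaps that of 0d replicate 2 (0.661 to 1.15 CPM). The log2 fold change at 30d was -1.16 ± 0.54 (SE), a fold of 0.448 with an interval from 0.202 to 0.992, and the adjusted p in edgeR was 0.404.

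The neuregulins were the steadiest members. Nrg1, the axonal signal to Schwann cells, had 79.4 and 79.3 CPM (0d), 74.0 and 72.9 (1d), 77.8 and 72.0 (3d) and 73.4 and 73.6 (30d). Both 0d libraries stood above the other 6, whose highest was 77.8 CPM, and the 8 libraries together differed by no more than 1.10-fold. The log2 fold change was -0.11 ± 0.054 (SE) at 1d, -0.08 ± 0.053 at 3d and -0.11 ± 0.053 at 30d, with adjusted p of 0.9999, 0.955 and 0.417 in edgeR. With 1 library left out the 3d value ran from -0.14 to -0.03. At 30d the 95% interval ran from -0.23 to 0.0025 on the log2 scale.

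Nrg2 (chr18:36017658-36197160, minus strand), a neuregulin that binds Erbb3 and Erbb4, had 19.9 and 18.9 CPM (0d), 19.1 and 18.5 (1d), 17.8 and 17.5 (3d) and 19.3 and 19.0 (30d). The 3d libraries were the lowest and the other time points overlapped each other. At 3d the log2 fold change against 0d was -0.13 ± 0.088 (SE) with an adjusted p of 0.957 in edgeR.

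Nrg3 (chr14:38368951-39473088, minus strand), a ligand of Erbb4, had 40.7 and 42.8 CPM (0d), 39.3 and 39.6 (1d), 44.5 and 44.2 (3d) and 39.3 and 41.0 (30d). The 3d libraries were the highest and lay apart from those of every other time point. Against 1d the 3d value was 0.17 ± 0.063 on the log2 scale (SE; fold 1.13, interval 1.02 to 1.24), and 30d against 3d was -0.14 ± 0.063 (SE). Neither passed after adjustment (edgeR adjusted p of 0.836 and 0.345). The log2 fold changes of Nrg3 against 0d were -0.08 at 1d, 0.09 at 3d and -0.06 at 30d, and with 1 library left out they ran from -0.12 to -0.05, from 0.05 to 0.12 and from -0.09 to -0.02.

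Of the EGF-type ligands, Hbegf had the smallest p of any member. Hbegf (chr18:36504927-36515805, minus strand) encodes a membrane-bound growth factor that proteases release and that binds Egfr and Erbb4. It had 12 and 12.9 CPM (0d), 10.0 and 12.3 (1d), 10.5 and 10.7 (3d) and 8.78 and 9.18 (30d). Both 30d libraries lay below the other 6, and both 0d libraries lay above both 3d and both 30d libraries. The log2 fold change was -0.16 ± 0.13 (1d, SE), -0.23 ± 0.13 (3d) and -0.47 ± 0.13 (30d), the last a fold of 0.722 with an interval from 0.598 to 0.871. At 1d the value was -0.02 without 1d replicate 1 and -0.31 without 1d replicate 2. Its p at 30d was 0.0022 before and 0.172 after adjustment in edgeR, and over all time points the adjusted p was 0.313, in a test that 1.02% of all genes passed.

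Btc (chr5:91357261-91402994, minus strand), the precursor of betacellulin, a ligand of Egfr and Erbb4, had between 31 and 59 counts. Its levels were 0.586 and 0.864 CPM (0d), 0.863 and 0.935 (1d), 0.874 and 0.807 (3d) and 0.809 and 0.486 (30d). The lowest value was that of 30d replicate 2 and the next lowest that of 0d replicate 1, so the groups overlapped. At this depth the interval of its 1d fold reached from 0.614 to 2.49, and at 30d from 0.441 to 1.78, so its fold was fixed no more closely than that.

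**Figure D3:**
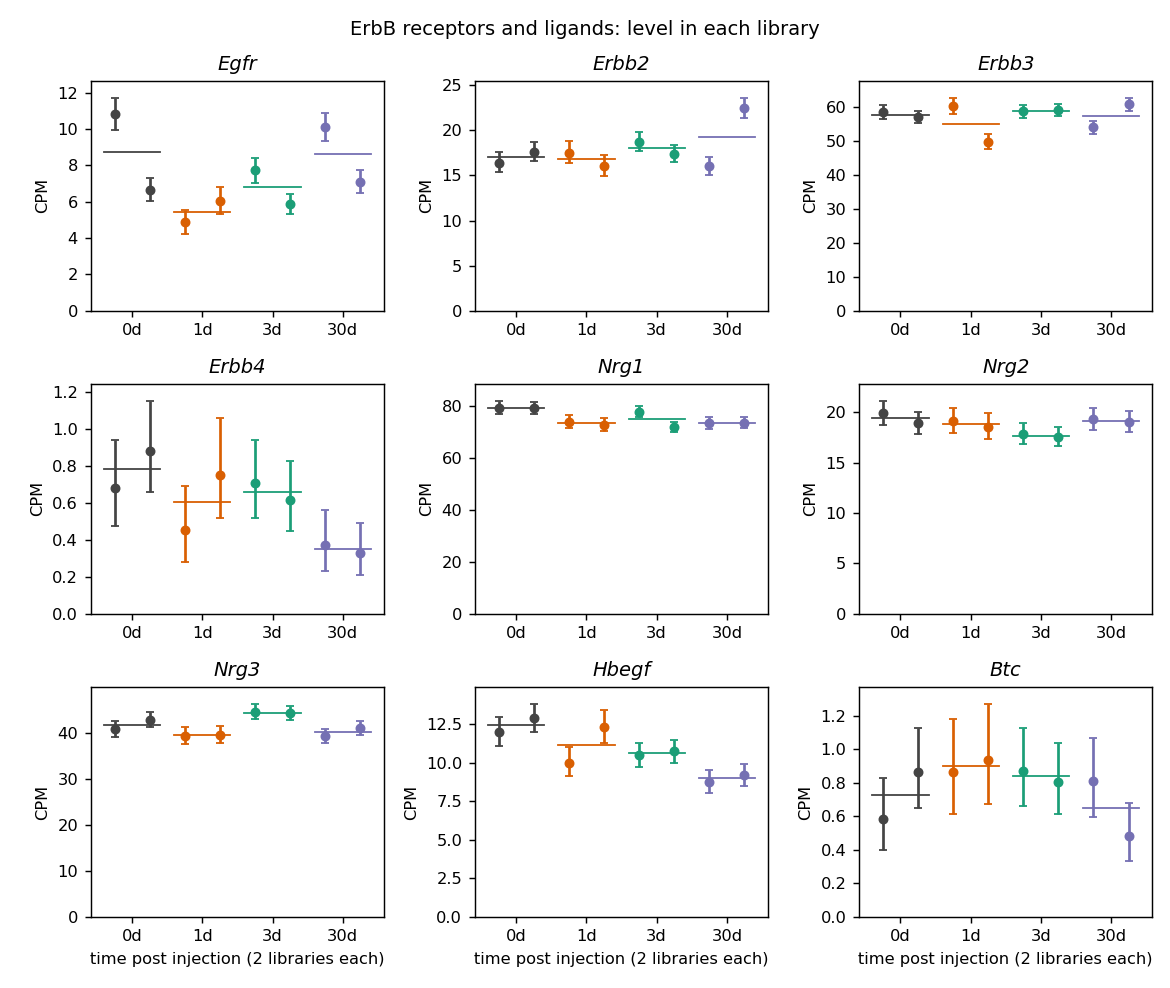
CPM of each member in each library, 2 libraries per time point, with exact 95% Poisson intervals for counting error as bars and the mean of each time point as a line. The 30d libraries of Hbegf (8.78 and 9.18 CPM) lie below the other 6, those of Nrg1 (73.4 and 73.6 CPM) lie below its 0d libraries (79.4 and 79.3 CPM), and the intervals of Erbb4 and Btc are wide.

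Between time points post injection the members likewise stayed under the threshold. At 3d against 1d, 0 of 9 members and 0.289% of all genes were called, and at 30d against 3d, 0 of 9 members and 0.935% of all genes. One member stood at an unadjusted p under 0.05 in each of these, Nrg3 both times, beside 4.24% and 13% of all genes. Over all 5 comparisons the 95% intervals of Erbb2, Erbb3, Nrg1, Nrg2 and Nrg3 reached no farther than 0.800-fold and 1.38-fold, whereas those of Egfr, Erbb4 and Btc reached 0.202-fold (Erbb4 at 30d against 0d) and 2.49-fold (Btc at 1d against 0d). The intervals of Hbegf reached 0.598-fold (30d against 0d) and 1.15-fold (3d against 1d).

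Across the 8 libraries, which share their time points, Erbb4 and Hbegf had the highest correlation among the 36 pairs of members, with Pearson's r of 0.93 on log2 CPM. Erbb4 has so few counts that this is a description only. Nrg2 and Nrg3 had the lowest, at -0.73. Both Hbegf and Erbb4 also followed the summed level of 6 satellite glia markers, glia that surround the neuron cell bodies, with r of 0.88 and 0.90. Among the 90 pairs of a member and a marker list others were as far from 0 or nearly so, such as Nrg1 with spinal cord glia (0.90), Nrg3 with macrophage (-0.84), Nrg2 with sensory neuron (-0.82) and Erbb2 with skeletal muscle markers (-0.76). The spinal cord glia sum was only 0.178 to 0.880 CPM, and 1 of its 5 markers was tested, so its r rests on very few counts. The satellite glia sum was 3094 and 3046 CPM (0d), 2845 and 2956 (1d), 2990 and 2987 (3d) and 2551 and 2651 (30d), and the satellite glia marker Apoe was called lower at 30d (log2 fold change -0.28 ± 0.039, SE, edgeR adjusted p of 0.0322). That call was lost without robust estimation (0.102), with the compared groups alone (0.102) and without 3d replicate 1 (0.138) or 3d replicate 2 (0.124). Apoe alone made up 71.3% to 75.1% of the sum, so the sum and the call of Apoe are largely 1 observation. Without Apoe the r of the other 5 markers was 0.53 for Hbegf and 0.67 for Erbb4, and none of these 5 was called at 30d, with log2 fold changes from -0.70 to 0.12. The part of satellite glia in the 30d values of Hbegf and Erbb4 was not tested.

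**Figure D4:**
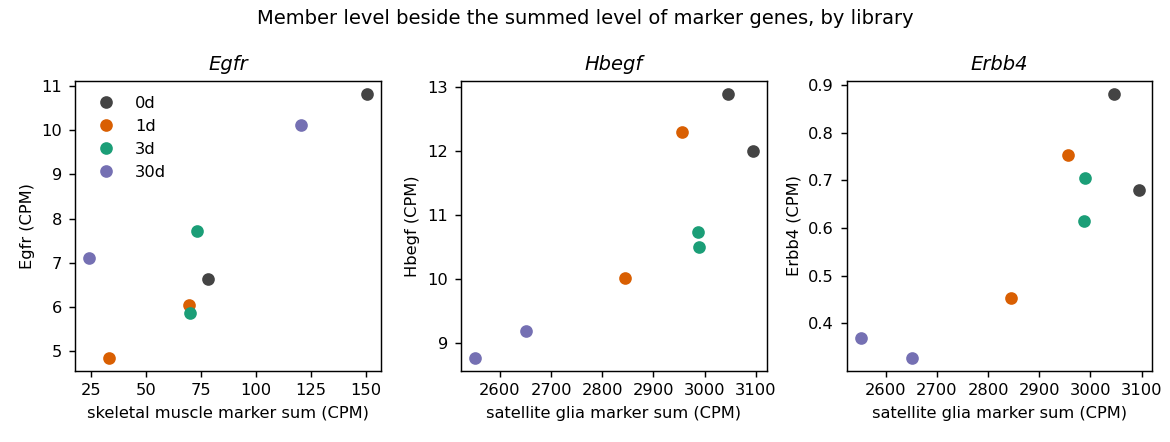
Level of Egfr beside the summed level of 9 skeletal muscle markers, and of Hbegf and Erbb4 beside that of 6 satellite glia markers, all in CPM, with 1 point per library coloured by time point. The axes do not start at 0. The 2 libraries with over 100 CPM of muscle markers have the most Egfr, and the 30d libraries are the lowest for satellite glia markers, a sum that is mostly Apoe, and for Hbegf and Erbb4.

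The genes whose log2 CPM ran most like each member over the 8 libraries are given as a description, since 8 libraries and 17328 genes yield high correlations. For Egfr they were Cdh5, an adhesion protein of endothelium, with r of 0.98, Masp1 (0.97) and Angptl1 (0.96). The sum of the 5 endothelium markers, Cdh5 among them, had an r with Egfr of 0.51, below that of the skeletal muscle (0.69) and fibroblast sums (0.62). For Erbb2 they were Rcor2 (0.98), Npas1 (0.97) and Trub2 (0.97), and for Erbb3 Lrba (0.96), Clec4a1 (0.95) and Akap17b (0.95). For Erbb4 they were Alg2 (0.99), Glrx5 (0.98) and Mxra7 (0.98). The neuregulin Nrg1 ran closest to Apold1 (0.96), Wfdc3 (0.96) and Lztfl1 (0.95), Nrg2 to Cxcr4 (0.97), Rgs6 (0.96) and Vstm2b (0.96), and Nrg3 ran close to Glud1 (0.95) and C1qtnf5 (0.95). The EGF-type ligand Hbegf ran closest to Rbm8a (0.997), Atp5j2 (0.97) and Cdc42 (0.97), and Btc to Alkbh4 (0.99), Tmem233 (0.98) and Moxd1 (0.98).

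The rest of the pathway was read from lists of the other ligands, the proteases that process ligands and receptors, the inhibitors, the adaptors and kinases, and the early response genes. Of the 6 other ErbB ligands, Tgfa, Egf, Areg and Nrg4 were tested, Epgn had at most 11 counts in a library and Ereg was at 0 in all, and none of the 4 tested was called in any of the 6 tests, where the share of all genes called was between 0.0231% and 1.02%. Tgfa, a ligand of Egfr, had 25.3 and 22.8 CPM (0d), 24.8 and 21.0 (1d), 21.0 and 19.7 (3d) and 21.2 and 30.1 (30d). Per kilobase it was, at 5.49 CPM, between Nrg2 and Hbegf. Egf had between 1.37 and 2.56 CPM, and 10.6% of its row overlaps another gene.

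Of the 11 proteases, 1 was called, at 30d against 3d, where 0.935% of all genes were. This was Adam19, a metalloprotease that can cleave neuregulins. It had 110.2 and 113.1 CPM (0d), 113.7 and 110.7 (1d), 122.4 and 122.8 (3d) and 103.3 and 96.7 (30d). Between 3d and 30d it fell by 0.29 on the log2 scale (SE 0.048, edgeR adjusted p of 0.00997). The 2 groups did not overlap, and neither 3d nor 30d passed against 0d. Adam19 also passed the test over all time points (edgeR adjusted p of 0.0365). The call was lost without 3d replicate 1 (adjusted p of 0.188), without 3d replicate 2 (0.193) and without 30d replicate 2 (0.0518).

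Of 16 inhibitors and turnover factors, none was called in any of the 6 tests, in which between 0.0231% and 1.02% of all genes were. Errfi1, a cytoplasmic inhibitor of the ErbB kinases that their signalling induces, came nearest at 3d against 1d. Its levels were 38.0 and 34.9 CPM (0d), 32.3 and 33.7 (1d), 41.4 and 41.0 (3d) and 35.5 and 37.9 (30d). The 3d against 1d value was 0.32 ± 0.071 on the log2 scale (SE), with an edgeR adjusted p of 0.0969. Spry1, an inhibitor of receptor tyrosine kinase signalling, had 5.27 and 4.72 CPM at 3d and 6.81 and 7.44 at 30d, and the edgeR adjusted p of that difference, its smallest, was 0.177.

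Of 29 adaptors and kinases, 1 was called at 3d against 1d (0.289% of all genes) and 1 at 30d against 3d (0.935%). Pik3r1, the regulatory subunit of phosphatidylinositol 3-kinase, which Erbb3 binds, had 201.0 and 204.0 CPM (0d), 183.6 and 194.5 (1d), 231.1 and 231.6 (3d) and 203.8 and 204.7 (30d). It rose from 1d to 3d by 0.29 ± 0.042 on the log2 scale (SE, edgeR adjusted p of 0.00561), and it passed the test over all time points (0.011). The call was lost without 1d replicate 1 (0.118), 3d replicate 1 (0.173) or 3d replicate 2 (0.186). Shc1, an adaptor that links ErbB receptors to Ras, had 135.3 and 141.7 CPM (0d), 158.0 and 159.8 (1d), 170.0 and 167.4 (3d) and 137.5 and 112.5 (30d). From 3d to 30d Shc1 fell by 0.43 on the log2 scale (SE 0.076, edgeR adjusted p of 0.0271), and without 30d replicate 2 the value was -0.30. Over all time points its adjusted p was 0.0589. Its call was lost without either 1d library (0.0734 and 0.0745) or either 3d library (0.354 and 0.240).

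Of 10 early response genes, 1 was called, at 3d, where 0.219% of all genes were. This was Ccnd1, cyclin D1, a target of growth factor signalling that starts the cell cycle. It had 59.6 and 57.9 CPM (0d), 51.6 and 50.6 (1d), 48.0 and 46.0 (3d) and 54.9 and 51.6 (30d), and at 3d it fell by 0.32 on the log2 scale (SE 0.060, edgeR adjusted p of 0.0467). Without any 1 of the 0d, 1d or 3d libraries its adjusted p was between 0.0702 and 0.887. The median log2 fold change of the 5 lists lay between -0.20 (early response genes at 3d) and 0.25 (the 4 other ligands at 30d) in the comparisons with 0d.

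Markers of the cell types in and around the ganglion were counted in the same fit. In the comparisons with 0d, none of the 14 Schwann cell, 5 endothelium, 4 tested adipocyte and 5 red blood cell markers was called, nor was the 1 tested marker of spinal cord glia. Of all genes tested, 0.346% were called at 1d, 0.219% at 3d and 0.0231% at 30d. Called at 3d were 2 of 10 sensory neuron markers (higher), 1 of 7 macrophage markers (lower) and 1 of 9 skeletal muscle markers (lower). At 1d 1 of 6 fibroblast markers and 1 of 9 skeletal muscle markers were called lower, and at 30d 1 of 6 satellite glia markers (lower). Of these 7 calls 0 held without 3d replicate 1 or without 3d replicate 2, 2 without 0d replicate 1 and 1 without robust estimation. With edgeR's newer dispersion method 3 of the 7 held, with limma-voom 3 and with the compared groups alone 4. The sensory neuron marker Scn10a passed at an edgeR adjusted p of 0.0499 and lost its call with RLE or upper quartile scaling and the CPM filter. The 1 tested marker of spinal cord glia, a list with a sum of 0.178 to 0.880 CPM, differed from 0d by -1.90 on the log2 scale (30d). On that scale the median difference from 0d was -1.22 for the skeletal muscle markers (1d), 1.09 for the adipocyte markers (30d) and 0.88 for the red blood cell markers (30d). Here 30d replicate 1 stood apart, with a summed level of 24.7 CPM of the adipocyte and 515.3 CPM of the red blood cell markers, against 4.06 to 10.5 and 140.6 to 282.3 CPM elsewhere. The part of these cell types in the 30d values of the members was not tested. The summed level of the Schwann cell markers was likewise lowest in 30d replicate 1, at 6961 CPM against 9459 to 12790 CPM in the other 7 libraries. The median log2 fold change of the Schwann cell markers was -0.19 at 1d, -0.02 at 3d and -0.21 at 30d, beside values of Erbb3 of -0.07, 0.03 and -0.0078.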

How the data were processed

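RNA was sequenced from DRG of C57BL/6J mice at 0d, 1d, 3d and 30d (2 libraries each, pools of mice, TruSeq kit, HiSeq). The authors used cutadapt 2.10 for trimming and STAR 2.7.5a for alignment to mm10, and counted read pairs over exons of UCSC genes with featureCounts 2.0.1, without strand and with overlapping genes each given a read pair (versions per the submitters' processing notes). They deposited 1 table with the raw counts of every gene, and its 8 columns were matched to samples by name. Multi-mapped reads were not counted.

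Counts were analysed with R 4.3.3 and edgeR 4.0.16 (filterByExpr, TMM, quasi-likelihood fit with robust estimation, time point as the only term, all 8 libraries in 1 fit). Of 24421 genes, 17328 were tested, and the 7093 others made up no more than 0.012% of a library's counts. A gene was called at a Benjamini-Hochberg adjusted p under 0.05 over all genes tested, in 5 pairwise comparisons and a test over all time points. SE was taken as |log2 fold change| over √F, and 95% intervals use the fit's degrees of freedom. Intervals of single counts are exact Poisson intervals and cover counting error only. Relative to level, counting error was largest for Erbb4 and Btc. It was not negligible for Egfr and Hbegf, whose intervals in 1d replicate 1 were 4.24 to 5.53 and 9.12 to 11 CPM. Replicates differed by more than sampling noise, and p-values measure the spread between pools of mice. The fit was also run on simulated counts drawn with its own estimate of the spread. This checks the code and not how well the fit suits these data.

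The members, gene lists and tests were chosen with earlier results of these data known. Named are all members, the pathway genes called in any test or else the 2 of a list with the smallest p over time, and the 3 genes most correlated with a member, of which 1 is not reported here. Alternatives were RLE and upper quartile scaling, no filter or a CPM filter, other dispersion settings, DESeq2 1.42.0, limma-voom (limma 3.58.1), the compared groups alone, a block for the replicate number, leaving out each library, and adjusted p under 0.01 or 0.10. Sequences of Nrg2 and Hbegf are not shown here.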

Additional observations from a re-analysis of the deposited data

How the results depend on the processing

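No member that received an adjusted p was called in any of the 6 tests under the alternatives run, the 8 left-out libraries, DESeq2 and limma-voom included. The test over all time points cannot be run on 2 compared groups alone, and DESeq2 gave Erbb4 no adjusted p at 30d against 3d. The smallest adjusted p of a member over the alternatives was 0.113 at 1d, 0.534 at 3d, 0.0803 at 30d (Hbegf, no filter), 0.291 at 3d against 1d, 0.118 at 30d against 3d and 0.129 over all time points. With the CPM filter 7 members were tested. Of 800 log2 fold changes of members under the alternatives, 778 kept their sign. Of the 22 that did not, 2 came from another method, Erbb3 at 30d (0.0040 with upper quartile scaling) and Egfr at 30d (0.0049 with limma-voom), and 20 from a left-out library. With 1 library left out, the values ranged at 1d from -0.088 to 0.042 for Erbb2 and from -0.21 to 0.063 for Erbb3. At 3d they ranged from -0.67 to 0.031 for Egfr and from -0.040 to 0.52 for Btc. At 30d they ranged from -0.33 to 0.37 for Egfr, from -0.085 to 0.40 for Erbb2, from -0.097 to 0.073 for Erbb3, from -0.056 to 0.021 for Nrg2 and from -0.58 to 0.15 for Btc. At 3d against 1d the ranges were -0.032 to 0.24 for Erbb3, -0.19 to 0.54 for Erbb4, -0.030 to 0.084 for Nrg1 and -0.21 to 0.086 for Hbegf. At 30d against 3d they were -0.17 to 0.31 for Erbb2, -0.13 to 0.042 for Erbb3 and -0.083 to 0.029 for Nrg1. In all, 33 of 45 member values moved by over 1.5 times or changed sign when 1 library was left out. A time point left with 1 library was assumed to vary like the others. The counts of called genes behind the background shares moved more, from 60 to between 49 and 110 at 1d, 38 to between 20 and 121 at 3d, 4 to between 0 and 184 at 30d, 50 to between 32 and 260 at 3d against 1d, 162 to between 92 and 378 at 30d against 3d and 177 to between 118 and 512 over all time points. With 1 library left out they ran from 26 (without 1d replicate 1) to 111 (30d replicate 1) at 1d, from 1 (3d replicate 1) to 121 (30d replicate 1) at 3d, from 1 (either 3d library) to 202 (30d replicate 2) at 30d, from 5 (3d replicate 1) to 117 (either 30d library) at 3d against 1d, from 12 (3d replicate 1) to 525 (30d replicate 1) at 30d against 3d and from 51 (3d replicate 1) to 401 (30d replicate 1) over all time points. The cause was not tested. Same-numbered replicates did not deviate together over all genes (correlations of -0.0144 to 0.0438). Whether they share an effect on part of the genes was not tested. With the replicate block 0 members were called in each test, and their smallest adjusted p was 0.639, 0.842, 0.118, 0.762, 0.325 and 0.246. Over all genes the block fit called more than the main fit in each test, 73, 50, 69, 77, 225 and 280 genes in the same order. For the called pathway genes and cell type markers the alternatives were chosen after seeing the data. Outside left-out libraries, Shc1 lost its call with upper quartile scaling (adjusted p of 0.0525) and with the compared groups alone (0.126), Ccnd1 lost its call without robust estimation (0.0841), with the newer dispersion method (0.0541) and with limma-voom (0.0632), and Adam19 and Pik3r1 kept theirs.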
